A study of Mus musculus with 9 samples.

Results

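The NR4A orphan nuclear receptors are the 3 genes Nr4a1, Nr4a2 and Nr4a3, taken by symbol from the 18188 genes listed for each library. All 3 were found and all 3 passed the filter on low values. They were measured by poly(A) RNA sequencing of CD8+ T cells, the cytotoxic lymphocytes, from mouse spleens. The comparison set 4 libraries with the genotype Rig1 KO against 5 WT libraries. RIG-I detects viral RNA in the cytosol and starts the interferon response, and the title of the series calls it an intracellular checkpoint on antitumour immunity by CD8+ T cells. The sources used here give no strain, age or sex of the mice, no treatment or stimulation of the cells, no purification method and no statement of the cells in which the gene was deleted. No animals were named, so the p-values reflect the variation among these libraries alone, which may be technical. Nor is it given whether the genotypes were prepared and sequenced together, so genotype and any difference in preparation cannot be told apart.

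NR4A proteins are transcription factors of the nuclear receptor superfamily whose ligand pocket is filled by bulky side chains, so their activity is set mainly by how much protein is made. Their genes are immediate early genes, transcribed within minutes of a signal without new protein synthesis. In T cells the signal is usually engagement of the antigen receptor, through calcium, MEF2 factors, CREB and kinase cascades. Nr4a1 encodes Nur77, which is widely used as a reporter of recent antigen receptor signalling and acts in the deletion of self-reactive thymocytes. Nr4a2 encodes Nurr1, best known for the development of midbrain dopamine neurons. Nr4a3 encodes Nor1, which overlaps with Nur77 in thymocytes. In mouse CD8+ T cells the family is known for restraining effector function in tumours and in chronic infection.

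The promoters of the members are shown because the 3 genes fell together and because the cyclic AMP response element, which CREB family factors bind, is an established control element of this family. Each line gives the 250 bases before the annotated start, from RefSeq on GRCm38.p6, at chr15:101266596-101266845 on the plus strand for Nr4a1, chr2:57124004-57124253 on the minus strand for Nr4a2 and chr4:48045055-48045304 on the plus strand for Nr4a3. Capitals mark the letters TGACG or CGTCA, the core of the response element on either strand, and in Nr4a2 also a match to the MEF2 site.
Nr4a1: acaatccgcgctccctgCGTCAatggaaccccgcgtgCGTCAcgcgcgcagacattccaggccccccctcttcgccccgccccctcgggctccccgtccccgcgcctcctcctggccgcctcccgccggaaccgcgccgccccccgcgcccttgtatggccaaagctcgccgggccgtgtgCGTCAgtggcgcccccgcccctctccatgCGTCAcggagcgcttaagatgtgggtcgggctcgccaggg
Nr4a2: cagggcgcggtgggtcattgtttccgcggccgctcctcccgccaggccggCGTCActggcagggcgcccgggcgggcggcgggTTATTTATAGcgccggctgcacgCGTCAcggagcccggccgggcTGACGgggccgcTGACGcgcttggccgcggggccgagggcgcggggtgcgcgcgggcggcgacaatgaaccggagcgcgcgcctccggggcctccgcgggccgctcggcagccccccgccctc
Nr4a3: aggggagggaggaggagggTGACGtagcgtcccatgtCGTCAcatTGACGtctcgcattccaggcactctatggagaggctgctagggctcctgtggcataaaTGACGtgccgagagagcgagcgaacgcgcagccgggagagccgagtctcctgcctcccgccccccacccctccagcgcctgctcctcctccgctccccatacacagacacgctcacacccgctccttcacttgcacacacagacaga
Each promoter held 4 matches to the core. They began 233, 213, 69 and 40 bases before the start in Nr4a1, 200, 144, 123 and 111 bases before it in Nr4a2, and 231, 213, 205 and 147 bases before it in Nr4a3. Of 32851 RefSeq promoters searched from 250 bases before to 50 bases after the start, 20.8% held at least 1 core and 0.231% held at least 4. A complete element, TGACGTCA, would count as 2 overlapping cores, and none was present in the 3 promoters, against 1.79% of all promoters. The NBRE, AAAGGTCA, which NR4A monomers bind, was also absent on both strands (1.51% of all promoters). No exact match was found to the CArG box bound by SRF, CCWWWWWWGG with W for A or T (1.63%). Inexact matches were not counted, and the Nr4a1 sequence holds ccttgtatgg, which differs from that pattern at 1 base. The MEF2 site occurred once, 167 bases before the start of Nr4a2, and in 3.19% of all promoters. A match is a description of the letters and does not show that a factor binds there.

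The deposited values are TPM, a transcript level scaled for gene length and library total. Values are given as mean ± SD over the 4 Rig1 KO or 5 WT libraries where not given per library. The reads recovered from them numbered 15496262 to 17893558 per library, and 15196 to 15631 genes were above 0 in a library. Ddx58, the symbol under which the files list the RIG-I gene, was at 33.3 ± 2.04 TPM in Rig1 KO (SD, n = 4) and 65.1 ± 2.0005 TPM in WT (SD, n = 5), or 51.1% of WT. The libraries ran from 30.6 to 35.2 TPM in Rig1 KO and from 63.2 to 67.4 TPM in WT, with no overlap. Markers of CD8 T cells were present in every library, and all 8 listed markers found in the files were higher in Rig1 KO. Of 10540 genes tested, 3526 were higher and 1291 were lower in Rig1 KO, 45.7% in all. The balance depended on scaling, with 2493 higher and 2260 lower under median ratio scaling and 2561 higher and 2192 lower under quantile scaling. In the values as deposited 33.5% of tested genes were higher and 12.2% lower, and over all 10540 the median on the log2 scale was 0.13.

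Nr4a1 was several-fold less abundant in Rig1 KO than in WT. It was at 29.9, 28.7, 28.7 and 30.2 TPM in Rig1 KO 1 to 4, against 206, 202, 217, 251 and 381 TPM in WT 1 to 5. The groups did not overlap, the 4 Rig1 KO libraries lay close together, and WT 5 stood above the other WT libraries. The means were 29.4 ± 0.775 TPM in Rig1 KO and 251 ± 74.8 TPM in WT (SD, n = 4 and 5), so that the transcript was at 11.7% of WT. The log2 fold change was -3.01 (SE 0.16, 95% interval -3.37 to -2.66, limma adjusted p = 2.79e-07), and the fall ranked 20 of 10540 tested genes. These values rested on 757 to 984 reads per library in Rig1 KO and 6053 to 10925 in WT.

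Nr4a2 fell furthest. It was at 3.53, 4.27, 5.17 and 5.27 TPM in Rig1 KO 1 to 4, against 89.97, 70.7, 102, 84.1 and 75.5 TPM in WT 1 to 5. Every Rig1 KO library was far below the lowest WT library, WT 2, and the highest value was that of WT 3, not WT 5. The means were 4.56 ± 0.821 TPM in Rig1 KO and 84.5 ± 12.4 TPM in WT, which put the transcript at 5.39% of WT. The log2 fold change was -3.94 (SE 0.13, 95% interval -4.22 to -3.67, limma adjusted p = 4.74e-09), and the fall ranked 8 of 10540. The reads behind it numbered 97 to 118 per library in Rig1 KO and 1770 to 2642 in WT. RefSeq has 1 predicted gene model that overlaps Nr4a2 and is not among the genes listed, and since no strand setting was given for the counting, reads of the model and of Nr4a2 cannot be told apart.

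Nr4a3 fell least. It was at 7.42, 6.54, 8.37 and 8.47 TPM in Rig1 KO 1 to 4, against 21.4, 18.2, 21.0, 19.2 and 21.8 TPM in WT 1 to 5. The groups were again separate, and the WT libraries lay within a narrow range that included WT 5. The means were 7.70 ± 0.907 TPM in Rig1 KO and 20.3 ± 1.56 TPM in WT, or 37.9% of WT. The log2 fold change was -1.30 (SE 0.09, 95% interval -1.49 to -1.10, limma adjusted p = 1.53e-06), and the fall ranked 193 of 10540. Between 401 and 491 reads per library stood behind the Rig1 KO values and between 1093 and 1335 behind the WT values.

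All 3 members were therefore called lower, against 12.2% of all tested genes, and all 3 had no overlap in that direction, against 10.1% of tested genes. An exact two-sided permutation test over the 9 libraries gave p = 0.00794 for each member, which is the smallest value this design allows. In bulk samples fewer cells that transcribe a gene and less of its RNA per cell cannot be told apart.

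**Figure D1:**
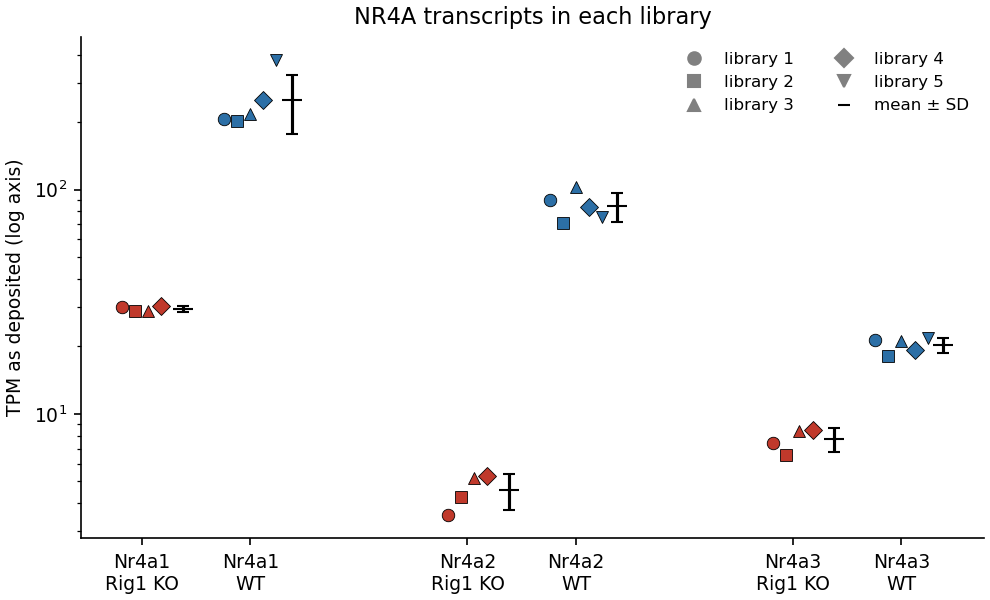
TPM of Nr4a1, Nr4a2 and Nr4a3 in each library on a log axis, with the 4 Rig1 KO libraries (red) left of the 5 WT libraries (blue) for each gene; the marker shape gives the library number, and the black bar beside each group is the mean ± SD. The genotypes do not overlap for any member, and the point that stands above the other WT points of Nr4a1 is WT 5 at 381 TPM.

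The TPM values were computed with the genomic span of each gene, introns included, so levels were compared between members as reads per kilobase of exon and per 1000000 recovered reads. On this scale Nr4a1 was the most abundant member in both genotypes, and Nr4a2 and Nr4a3 changed places. In Rig1 KO the order was Nr4a1 at 14.9 ± 0.847, Nr4a3 at 4.59 ± 0.331 and Nr4a2 at 1.67 ± 0.237 (SD, n = 4). In WT it was Nr4a1 at 134 ± 38.2, Nr4a2 at 32.6 ± 4.60 and Nr4a3 at 12.8 ± 0.831 (SD, n = 5). Neighbours in each order did not overlap between libraries. The summed level of the family was 21.2 ± 0.618 in Rig1 KO and 179 ± 36.7 in WT. Nr4a1 made up 70.4 ± 2.56% of that sum in Rig1 KO and 73.9 ± 5.54% in WT. The share of Nr4a2 was 7.88 ± 1.21% in Rig1 KO and 18.8 ± 4.48% in WT, and that of Nr4a3 21.7 ± 1.70% in Rig1 KO and 7.30 ± 1.15% in WT.

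Whether the members differed in how far they fell was tested on the ratios between them within each library, in which library totals cancel. On the exon scale the ratio of Nr4a2 to Nr4a3 was 0.291, 0.401, 0.379 and 0.382 in Rig1 KO 1 to 4, against 2.58, 2.39, 2.98, 2.69 and 2.13 in WT 1 to 5. Nr4a2 was thus the lower member of the pair in every Rig1 KO library and the higher in every WT library. The log2 ratio differed by -2.81 between Rig1 KO and WT (SE 0.13), a 7.04-fold difference (exact two-sided permutation p = 0.00794, adjusted over the 3 pairs 0.0119).

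The ratio of Nr4a3 to Nr4a1 was 0.292, 0.268, 0.344 and 0.331 in Rig1 KO 1 to 4, against 0.123, 0.106, 0.114, 0.0902 and 0.0674 in WT 1 to 5. Nr4a3 retained more of its transcript than Nr4a1 did, and the groups were separate. The log2 ratio was 1.65 higher in Rig1 KO (SE 0.17, exact permutation p = 0.00794, adjusted 0.0119). The ratio of Nr4a2 to Nr4a1 was 0.0852, 0.108, 0.130 and 0.126 in Rig1 KO 1 to 4, against 0.316, 0.253, 0.341, 0.242 and 0.143 in WT 1 to 5. Here the highest Rig1 KO library, KO 3, lay just under the lowest WT library, WT 5. The log2 ratio was -1.16 (SE 0.26, exact permutation p = 0.0159, adjusted 0.0159), so Nr4a2 fell further than Nr4a1 as well.

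**Figure D2:**
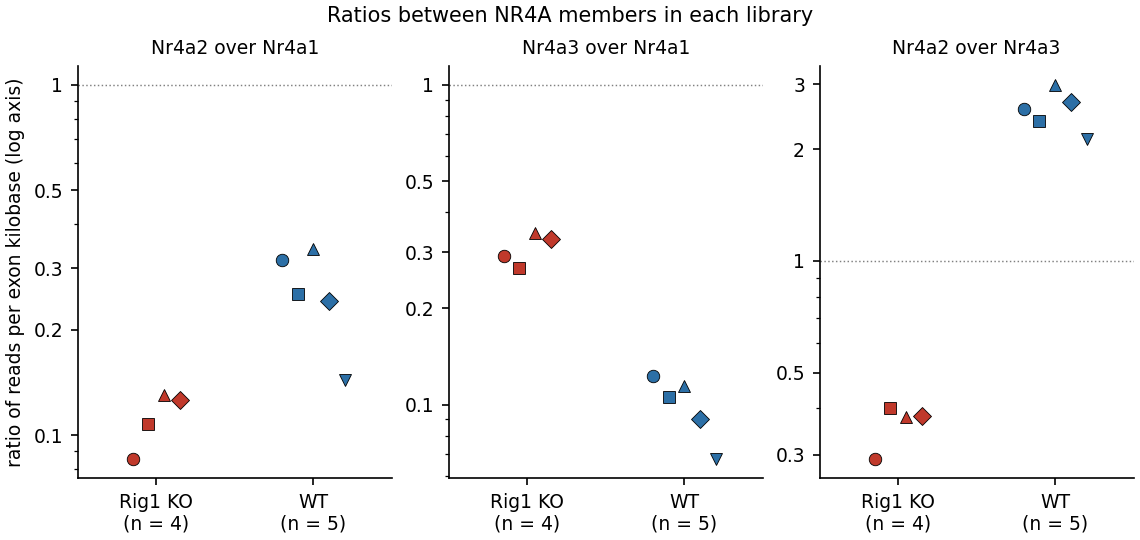
Ratios between NR4A members in each library, from reads per kilobase of exon, on log axes, with Rig1 KO left of WT in each panel and a dotted line at a ratio of 1 where it falls within the axis. The ratio of Nr4a2 to Nr4a3 lies below 1 in the 4 Rig1 KO libraries (0.291 to 0.401) and above 1 in the 5 WT libraries (2.13 to 2.98).

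The spread within a genotype is given with the counting error of the reads, and differences in spread were not tested. The coefficient of variation of Nr4a1 was 2.64% in TPM among the Rig1 KO libraries, where counting error alone gives 3.42%, and 29.7% among the WT libraries, where it gives 1.14%. On the exon scale, which divides by recovered reads instead, it was 5.67% in Rig1 KO and 28.6% in WT. The WT spread came largely from WT 5, since the other 4 WT libraries averaged 219 ± 22.3 TPM, a coefficient of variation of 10.2%. For Nr4a2 the coefficients in TPM were 18.0% in Rig1 KO and 14.7% in WT, beside counting errors of 9.56% in Rig1 KO and 2.14% in WT. For Nr4a3 they were 11.8% in Rig1 KO and 7.66% in WT, beside counting errors of 4.72% in Rig1 KO and 2.82% in WT. On the exon scale the coefficients in Rig1 KO were 14.2% for Nr4a2 and 7.20% for Nr4a3. Without WT 5 the log2 fold change of Nr4a1 was -2.85, and without WT 4 and WT 5 together it was -2.78, and Nr4a2 (-3.99) and Nr4a3 (-1.29) moved little when both were left out.

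Markers of some other cells moved with the genotype, and WT 5 was highest in several lists. Of 10 B cell markers found, none was at 0 in all libraries. Of 9 tested, 8 were lower in Rig1 KO, against 12.2% of all tested genes. Of 13 myeloid markers found, 2 of 12 tested were lower, a share near that of all tested genes, none was higher and 10 did not pass. WT 5 had the highest summed TPM of both lists, and the ranges of both sums overlapped between the genotypes. The B cell sums were 96.3, 93.6, 201 and 94.8 TPM in Rig1 KO 1 to 4, against 343, 475, 167, 517 and 1169 TPM in WT 1 to 5. The myeloid sums were 1552, 1800, 1746 and 1596 TPM in Rig1 KO 1 to 4, against 907, 1094, 1578, 1744 and 2141 TPM in WT 1 to 5. With the mean of the B cell markers as a covariate the log2 fold changes were -2.55 for Nr4a1 (limma adjusted p = 4.79e-05), -4.13 for Nr4a2 and -1.24 for Nr4a3. The part of myeloid cells in the result was not tested.

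Other marker lists moved too. Summed NK cell markers were 2398 to 2657 TPM in Rig1 KO and 1442 to 1651 in WT, and 7 of 8 tested were higher. Most of this sum was Nkg7 (2045 ± 114 TPM in Rig1 KO and 1320 ± 89.4 TPM in WT), so the sum mainly follows that gene. The list as a whole rose further than the sum shows. The median log2 fold change of the 8 NK cell markers was 1.53, against 0.63 for Nkg7. Basophil and mast cell markers summed to 222 to 423 TPM in Rig1 KO and 15.7 to 59.5 in WT, and 6 of 7 were higher. Of all tested genes 33.5% were higher. The CD8 T cell markers summed to 5120.0 to 5710 TPM in Rig1 KO and 3712 to 4282 in WT. The erythroid and platelet sums overlapped, at 207 to 354 TPM in Rig1 KO and 248 to 387 in WT, but of 7 tested genes 3 were higher and 3 lower in Rig1 KO. The haemoglobin genes Hbb-bs (101 ± 24.5 TPM in Rig1 KO and 34.9 ± 19.2 TPM in WT), Hbb-bt (8.09 ± 2.96 TPM in Rig1 KO and 1.52 ± 1.58 TPM in WT) and Hba-a1 (147 ± 46.4 TPM in Rig1 KO and 69.7 ± 29.8 TPM in WT) were higher. The platelet genes were lower. They were Pf4 (7.41 ± 3.21 TPM in Rig1 KO and 77.0 ± 9.48 TPM in WT), Ppbp (15.9 ± 4.24 TPM in Rig1 KO and 103 ± 14.0 TPM in WT) and Itga2b (10.1 ± 1.28 TPM in Rig1 KO and 16.8 ± 1.33 TPM in WT). The dendritic cell sums were 59.3 to 68.4 TPM in Rig1 KO and 16.3 to 69.7 in WT. Most of this sum was Itgax (55.5 ± 5.66 TPM in Rig1 KO and 18.8 ± 10.7 TPM in WT), the 1 gene of 6 tested that was called, while the log2 fold changes of the other 5 were negative and did not pass. The CD4 T cell sums were 20.3 to 23.4 TPM in Rig1 KO and 19.5 to 66.0 in WT, with WT 5 highest and WT 4 next at 29.6. None of the markers found was at 0 in all libraries. The part of the NK cell, basophil, haemoglobin, platelet, dendritic cell and CD4 T cell signals in the NR4A result was not tested.

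**Figure D3:**
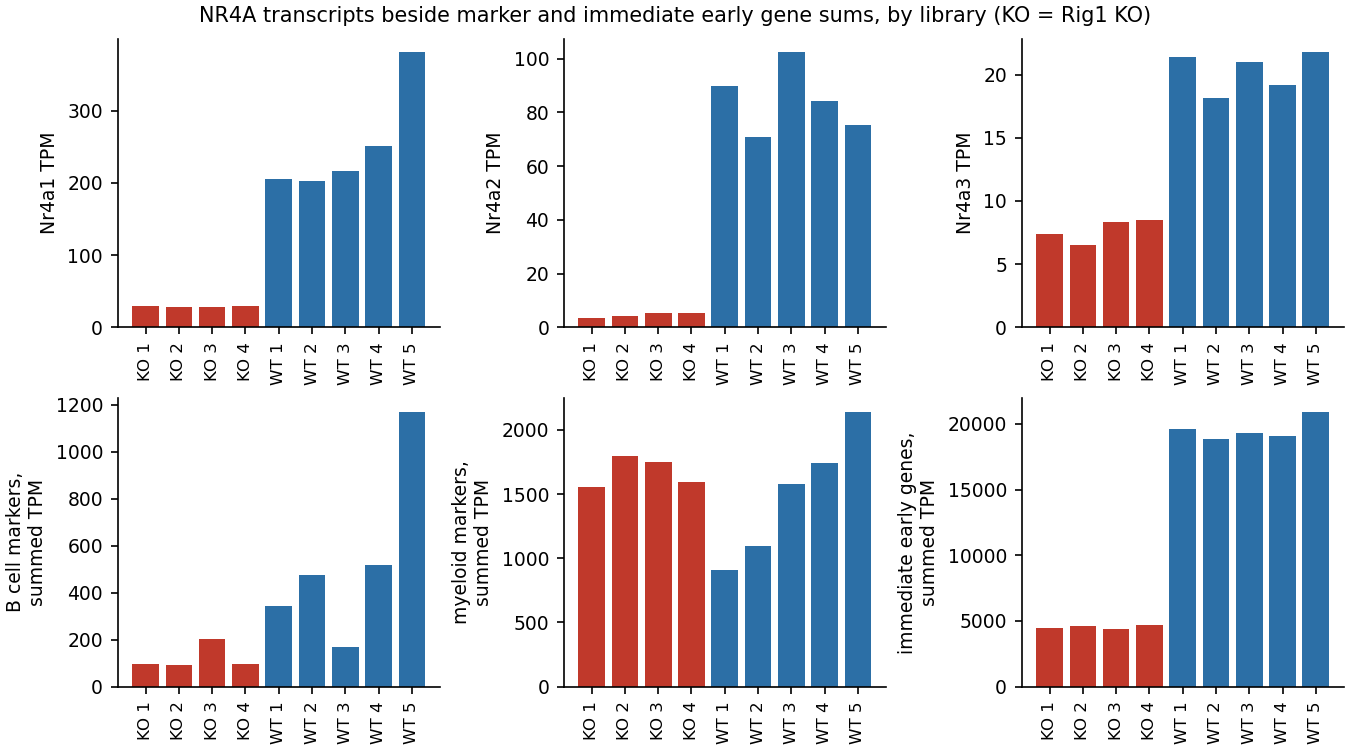
TPM of each NR4A member (upper row) and summed TPM of B cell markers, myeloid markers and immediate early genes (lower row) in every library, with the 4 Rig1 KO libraries (red) left of the 5 WT libraries (blue). WT 5 has the highest Nr4a1 bar (381 TPM) and the highest B cell and myeloid sums (1169 and 2141 TPM), while its Nr4a2 bar (75.5 TPM) is the second lowest of the WT libraries.

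The other nuclear receptors served as a reference within the superfamily. Of 46 listed genes, 17 passed the filter and 29 were not tested, with no value above 1.30 TPM in any library. The filter acts on TPM scaled by genomic span, so a long gene can fall below it with more reads than a shorter gene that passed. The genes not tested are therefore not shown to be unexpressed. Against a background of 33.5% of tested genes higher and 12.2% lower, 4 of the 17 were higher in Rig1 KO, 1 was lower and 12 did not pass, with a median log2 fold change of 0.17 beside 0.13 for all tested genes. Nr2c2, the testicular receptor 4, was at 17.3 ± 1.39 TPM in Rig1 KO and 11.7 ± 0.896 TPM in WT (log2 fold change 0.52, limma adjusted p = 0.000289). Esrra, an orphan receptor that drives mitochondrial genes, was at 63.4 ± 2.20 TPM in Rig1 KO and 51.9 ± 5.25 TPM in WT (0.29). Rara, the retinoic acid receptor alpha, was at 27.7 ± 1.58 TPM in Rig1 KO and 23.6 ± 1.17 TPM in WT (0.22). The 1 receptor that fell was Nr1h2, the oxysterol receptor LXR beta, at 302 ± 22.8 TPM in Rig1 KO and 343 ± 7.18 TPM in WT (-0.19, adjusted p = 0.0190). The 3 NR4A genes held ranks 1 to 3 among the 20 tested receptors when ordered by the size of the fall, and the next, Nr2f6, had a log2 fold change of -0.33 that did not pass (adjusted p = 0.263). Receptors that did not pass the filter were not ranked. With no filter, 6 other receptors were higher and 2 lower. With median ratio scaling, Rara and Esrra no longer passed, leaving 2 receptors higher and 1 lower. The B cell covariate left 2 higher and none lower.

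**Figure D4:**
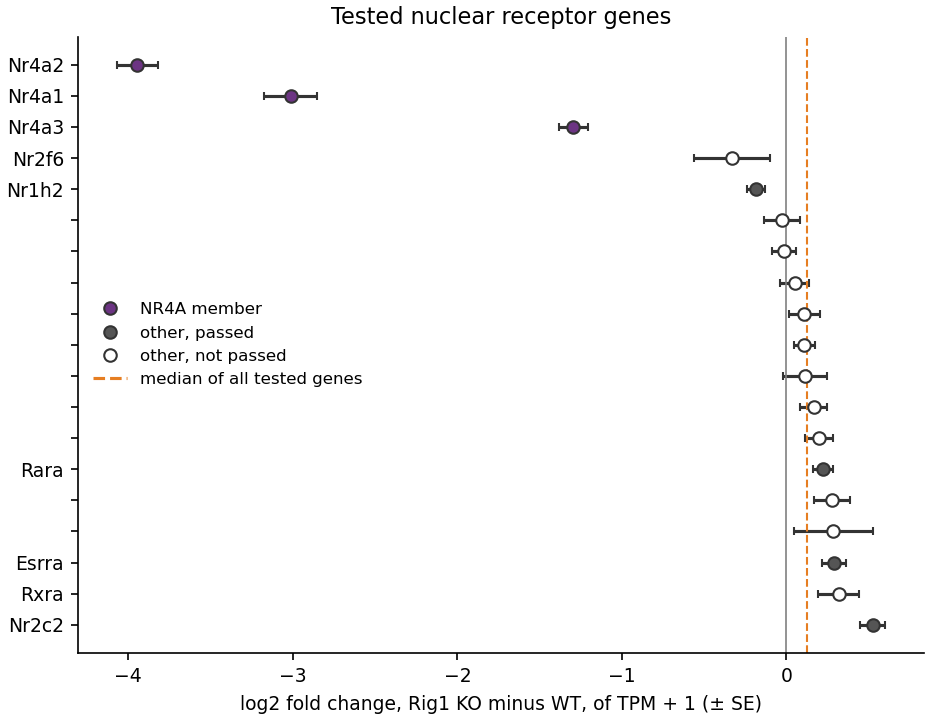
Log2 fold change, Rig1 KO minus WT, of TPM + 1 with its SE for 19 of the 20 tested nuclear receptor genes, labelled where named in the text (filled purple, NR4A; filled grey, other that passed; open, other that did not), with the median of all tested genes as a dashed line. The NR4A genes lie between -3.94 and -1.30, and the next receptor, Nr2f6, lies at -0.33.

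The lists of genes around the family were described by their counts in the same fit. Immediate early genes, the class to which NR4A genes belong, fell almost as a whole: of 20 tested, 19 were lower and 1 was higher, against 12.2% and 33.5% of all tested genes, with a median log2 fold change of -1.86. Their summed TPM was 4377 to 4704 in Rig1 KO and 18810 to 20924 in WT. With the B cell covariate 15 of these genes were lower and none was higher. Fosb, an AP-1 subunit, was at 74.2 ± 9.89 TPM in Rig1 KO and 1577 ± 149 TPM in WT (-4.40, adjusted p = 3.43e-10). Jun, its partner subunit, was at 172 ± 7.81 TPM in Rig1 KO and 1634 ± 110 TPM in WT (-3.24). Fos, another subunit, was at 239 ± 28.2 TPM in Rig1 KO and 2353 ± 236 TPM in WT. Dusp1, a phosphatase of MAP kinases, was at 7.24 ± 0.662 TPM in Rig1 KO and 89.7 ± 9.29 TPM in WT (-3.46). Junb was at 624 ± 47.6 TPM in Rig1 KO and 5050 ± 441 TPM in WT (-3.01), and the zinc finger factor Klf6 was at 233 ± 12.3 TPM in Rig1 KO and 939 ± 55.0 TPM in WT. The 1 member that rose was Srf, at 142 ± 11.2 TPM in Rig1 KO and 121 ± 4.21 TPM in WT (0.23, adjusted p = 0.00971), and it did not pass with median ratio or quantile scaling or with the B cell covariate. Egr3, named after its values were seen, was lower by 0.57 on the log2 scale, but with the B cell covariate its sign turned to 0.16 (adjusted p = 0.502).

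Of 23 tested genes linked to NR4A in T cells, 8 were higher, 9 were lower and 6 did not pass, against 33.5% of all tested genes higher and 12.2% lower. The share that was higher is near that background. The list had a median log2 fold change of -0.04 and a mean of -0.27; with median ratio scaling the counts were 5 higher and 11 lower. The B cell covariate left 5 higher and 6 lower. Ctla4, an inhibitory receptor, was at 5.64 ± 1.31 TPM in Rig1 KO and 55.9 ± 4.72 TPM in WT (-3.12, adjusted p = 2.02e-08). Irf4, a transcription factor induced by antigen receptor signals, was at 12.4 ± 2.34 TPM in Rig1 KO and 58.4 ± 14.6 TPM in WT (-2.13, adjusted p = 3.91e-06). Nfkbiz, which encodes an atypical member of the IkappaB family, was at 36.9 ± 2.57 TPM in Rig1 KO and 119 ± 9.34 TPM in WT (-1.66). Ifng, interferon gamma, was at 21.4 ± 5.13 TPM in Rig1 KO and 70.2 ± 11.4 TPM in WT (-1.68). Klf2, a factor for lymphocyte recirculation, was at 990 ± 50.2 TPM in Rig1 KO and 1937 ± 154 TPM in WT (-0.97). Fasl, a death ligand, was higher, at 23.2 ± 3.93 TPM in Rig1 KO and 8.86 ± 1.95 TPM in WT (1.31). Of genes named after their values were seen, the inhibitory receptor genes Pdcd1 (4.92 ± 1.71 TPM in Rig1 KO and 2.33 ± 0.556 TPM in WT, 0.80) and Lag3 (30.3 ± 6.11 TPM in Rig1 KO and 19.1 ± 4.95 TPM in WT, 0.66) were higher. Neither passed with the B cell covariate (limma adjusted p = 0.105 and 0.0587), although their log2 fold changes were then 0.82 and 0.91. Inhibitory receptor genes of the list thus went both ways, since Ctla4 was lower. Tox, a factor of exhausted T cells, did not pass (-0.04, adjusted p = 0.756).

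Of 20 tested factors that act at NR4A promoters, 2 were higher, 3 were lower and 15 did not pass, against 33.5% of all tested genes higher and 12.2% lower, so the share that was lower is near the background. The median was -0.01. Crem, a cyclic AMP responsive factor that binds the same element as CREB, was at 2.01 ± 0.153 TPM in Rig1 KO and 4.33 ± 0.378 TPM in WT (-0.82, adjusted p = 3.23e-05). Mef2d, a calcium-responsive factor known to bind the Nr4a1 promoter in T cells, was at 147 ± 11.2 TPM in Rig1 KO and 192 ± 16.7 TPM in WT (-0.38). The coactivator Crebbp was at 19.5 ± 1.80 TPM in Rig1 KO and 23.5 ± 1.47 TPM in WT (-0.26). Elk4, a partner of SRF, was higher with Srf, at 29.5 ± 4.27 TPM in Rig1 KO and 24.0 ± 0.775 TPM in WT (0.28). Creb1 itself, named after its values were seen, was at 43.6 ± 4.61 TPM in Rig1 KO and 42.0 ± 2.24 TPM in WT (adjusted p = 0.616), and Nfatc2 did not pass (0.16, adjusted p = 0.0689). With median ratio or quantile scaling none of these factors was higher and 8 were lower, and with the B cell covariate none was higher and 1 was lower.

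Of 17 kinases and phosphatases on the signalling path to NR4A induction, 6 were higher, 2 were lower and 9 did not pass. Both shares are near those of all tested genes, 33.5% higher and 12.2% lower, and the median of 0.13 equals theirs at this rounding. Camk4, a calcium and calmodulin dependent kinase, was at 4.78 ± 0.514 TPM in Rig1 KO and 8.22 ± 1.34 TPM in WT (-0.66, adjusted p = 0.000948). Rps6ka5, a kinase that phosphorylates CREB, was at 1.54 ± 0.214 TPM in Rig1 KO and 2.09 ± 0.158 TPM in WT (-0.29). Rps6ka1, a ribosomal S6 kinase, was at 55.7 ± 3.49 TPM in Rig1 KO and 42.3 ± 2.22 TPM in WT (0.39). Ppp3cb, a catalytic subunit of calcineurin, was at 60.7 ± 4.43 TPM in Rig1 KO and 48.7 ± 3.32 TPM in WT. Rps6ka3, a further S6 kinase, was at 23.5 ± 2.74 TPM in Rig1 KO and 18.6 ± 1.59 TPM in WT. With median ratio or quantile scaling 3 were higher and 2 lower. The B cell covariate left 2 higher and 1 lower. Of 16 tested partners and coregulators of NR4A proteins, 2 were higher and 1 was lower, against 33.5% of all tested genes higher and 12.2% lower, with a median of -0.02. Pias4, a SUMO ligase, was at 40.9 ± 1.25 TPM in Rig1 KO and 31.6 ± 2.55 TPM in WT (0.36). Bcl2, the survival protein to which Nur77 binds in mitochondria, was at 13.6 ± 1.59 TPM in Rig1 KO and 11.1 ± 0.658 TPM in WT (0.26, adjusted p = 0.0257, not passed with either scaling). Rxra, Kdm1a and Trim28 did not pass, and with median ratio or quantile scaling 1 partner was higher and 7 were lower.

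Heat shock genes, which respond to protein damage and to the handling of cells, were lower or did not pass. Of 12 tested, 5 were lower, none was higher and 7 did not pass, against 33.5% of all tested genes higher and 12.2% lower, with a median of -0.40; 1 was lower with the B cell covariate and 9 with median ratio scaling. Hspa1b, an inducible HSP70, was at 26.7 ± 6.26 TPM in Rig1 KO and 87.6 ± 45.7 TPM in WT. Hspa1a, its near-identical copy, with which it can share reads, was at 0.302 ± 0.379 TPM in Rig1 KO and 3.75 ± 1.44 TPM in WT (-1.87). Bag3, Dnaja1 and Dnajb1 also fell. The summed TPM of the list overlapped between the genotypes, at 8463 to 11272 in Rig1 KO and 9612 to 12396 in WT. Since the preparation of the cells was not given, its part in the NR4A result was not tested.

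**Figure D5:**
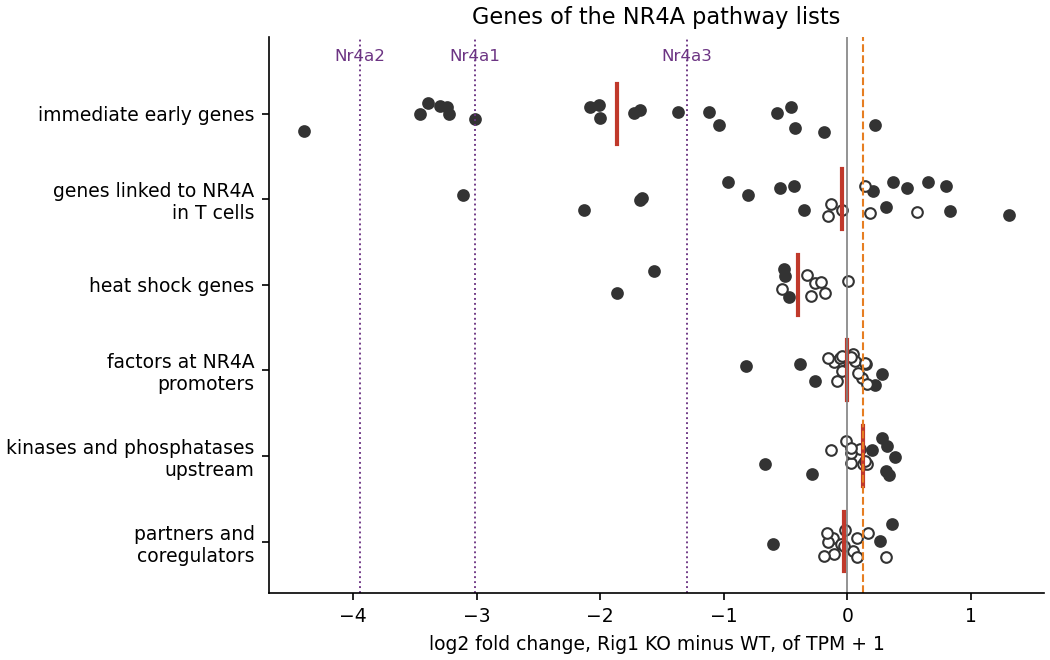
Log2 fold change, Rig1 KO minus WT, of TPM + 1 for every tested gene of 6 lists (filled, passed; open, not passed; red bar, median of the list), with the 3 NR4A members as dotted lines, 0 as a grey line and the median of all tested genes as a dashed line. The immediate early genes spread from -4.40 to 0.23 around a median of -1.86, while the medians of the factors, kinases and partners lie between -0.02 and 0.13.

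Genes whose pattern was most like that of a member were found by Pearson's r of log2(TPM + 1) over all 9 libraries, as a description of 9 points from 2 separate genotypes. For Nr4a1 they were Egr1, an immediate early zinc finger factor (r = 0.997), Trib1 (0.997), Rgs2, a brake on G protein signals (0.997), Mafk (0.996) and Trp53inp2 (0.996). Nr4a2 was most like Gadd45b (0.999), Klf6 (0.999), Gch1, the first enzyme of tetrahydrobiopterin synthesis (0.999), Ifrd1 (0.998) and Fosb (0.998). For Nr4a3 they were Spty2d1 (0.997), Fbrsl1 (0.995), Tsc22d2 (0.995), Wdr48 (0.994) and Insig1, a regulator of sterol synthesis (0.994). Between members r was 0.978 for Nr4a1 and Nr4a2, 0.980 for Nr4a1 and Nr4a3 and 0.990 for Nr4a2 and Nr4a3. The genes above were picked for the highest r, so the lower r between members follows from that choice. Among 10539 genes compared, Nr4a2 ranked 101 and Nr4a3 ranked 88 in likeness to Nr4a1. In likeness to Nr4a2, Nr4a1 ranked 147 and Nr4a3 ranked 62. In likeness to Nr4a3, Nr4a1 ranked 124 and Nr4a2 ranked 29. Most of this likeness is the difference between the genotypes, which all of these genes share.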

How the data were processed

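The 9 libraries hold poly(A) RNA of CD8+ T cells from mouse spleens, and they were grouped by the genotype in their titles. The deposited values are TPM, per the file headers, with 1 value per gene and library. Reads were trimmed with fastp and counted with featureCounts on mm39 (GRCm39), per the submitters' processing notes; the sources used here give no versions, aligner, annotation, gene lengths or strand setting. Whole reads were recovered from the TPM values as the smallest whole numbers in their ratios, within a relative tolerance of 2e-12, for 100% of 17934 genes above 0. A gene whose reads share a divisor comes out too low, so totals are lower bounds. Of 9805 genes with a GENCODE M21 length, 99.2% had an implied length within 1% of their genomic span, and 1.37% one within 1% of their exons. Depth ranged from 15496262 to 17893558 reads.

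The test was limma 3.58.1 (trend option, R 4.3.3) on log2(TPM + 1) for the 10540 genes that reached 1 TPM in 4 or more libraries, two-sided and without covariates; p-values were adjusted by Benjamini-Hochberg across these genes, with a threshold of 0.05. Fold changes are Rig1 KO minus WT and are understated for low genes. Ratios between members were compared with exact permutation tests, adjusted over 3 pairs. The limma and recovery steps were tested on simulated data. The members, the 7 gene lists and the marker lists were chosen with earlier results of these data known. Named genes are the members, the RIG-I gene, the 5 genes most like each member, up to 6 genes of each list with the smallest p, and genes of counts of 5 or fewer; others are said to be named after their values were seen. Alternatives covered pseudocount, filter, scaling, voom on recovered reads, a B cell marker covariate, a replicate block and left-out libraries. Promoters are RefSeq sequences on GRCm38.p6, an older build than the authors', and served only for sequence. Protein sequences were not used here. Some genes that enter the list counts are not reported here by name.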

Additional observations from a re-analysis of the deposited data

Results flagged for a closer look

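Of 148 groups of 4 or 5 libraries checked, 9 held a library whose gap to its nearest neighbour took up an unusually large part of the group's range; chance gives about 1 such group in 20. The Nr4a1 value of WT 5, 381 TPM, was the highest of its group (gap over range 0.726). WT 5 was also the highest WT library for Irf4 (83.7 TPM), Nr1h2 (355 TPM), Trp53inp2 (58.7 TPM), Orai3 (33.6 TPM), Fxr2 (63.7 TPM) and Dexi (12.1 TPM), of which Trp53inp2, Orai3, Fxr2 and Dexi were picked for their likeness to Nr4a1. The height of WT 5 in those 4 follows from that choice and is not to be set against the chance rate. Rig1 KO 3 stood above the other Rig1 KO libraries for Nr2c2 (19.4 TPM) and Ctla4 (7.59 TPM). WT 5 also had the highest B cell, myeloid and CD4 T cell marker sums, and their part in these values was not tested.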

How the results depend on the processing

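Nr4a1, Nr4a2, Nr4a3 and Ddx58 kept their direction and their call under all 20 alternatives, with adjusted p-values of 2.81e-09 to 4.79e-05, 1.11e-09 to 5.35e-06, 1.21e-08 to 0.000496 and 4.25e-09 to 0.000169, and the 3 ratios kept theirs under all 12. Leaving out each library in turn gave log2 fold changes of -3.08 to -2.85 for Nr4a1, -4.01 to -3.85 for Nr4a2, -1.34 to -1.23 for Nr4a3 and -0.98 to -0.91 for Ddx58, and ratio differences of -1.36 to -1.04, 1.52 to 1.73 and -2.88 to -2.71. Changed genes then numbered 2795 to 3592 higher and 1098 to 1282 lower, receptors 4 to 6 and 1, promoter factors 1 to 4 and 3, kinases 4 to 6 and 1 to 2, partners 1 to 3 and 1 to 2, genes linked to NR4A 5 to 9 and 8 to 9, immediate early genes 1 and 18 to 19, and heat shock genes 5 to 7 lower. Promoter factors higher were 4 without KO 2 and 1 without KO 3, KO 4, WT 1 or WT 4; kinases lower were 1 without KO 1, KO 2, WT 4 or WT 5; partners higher were 1 without KO 2, KO 4 or WT 1 and lower 2 without KO 3, KO 4, WT 3 or WT 5; linked genes higher were 5 without KO 3 or KO 4.

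With the B cell covariate 2261 genes were higher and 612 lower, receptors were 2 and 0, promoter factors 0 and 1 and kinases 2 and 1. Linked genes were then 5 and 6, immediate early genes 0 and 15, and heat shock genes lower 1. Median ratio scaling, which moved the median of all genes to 0.01 on the log2 scale, gave 2493 genes higher and 2260 lower, receptors higher 2, promoter factors 0 and 8, kinases higher 3, partners 1 and 7, linked genes higher 5, immediate early genes higher 0 and heat shock genes lower 9. Quantile scaling gave 2561 genes higher and 2192 lower, promoter factors 0 and 8, kinases higher 3, partners 1 and 7 and immediate early genes higher 0. Voom gave 1944 genes lower, promoter factors lower 7, partners lower 5 and heat shock genes lower 9. Without a filter, receptors lower were 2 and promoter factors lower 5; with a mean TPM of at least 5, kinases lower were 1 and linked genes higher 5. Without WT 4 and WT 5, receptors lower were 0, promoter factors higher 1, kinases lower 1 and partners lower 2. The cause of these shifts was not tested.

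The labels do not say whether equal replicate numbers pair the samples. Same-numbered libraries correlated at -0.0996 to 0.0972 in their deviations from the group means, and different-numbered ones at -0.162 to 0.152. Such correlations cannot show whether libraries were paired. WT 5 has no same-numbered Rig1 KO library, so the replicate block also takes WT 5 out of the contrast, and the members changed by the same values as without WT 5, -2.85, -3.98 and -1.27. With the block 3595 genes were higher and 1182 lower, promoter factors higher were 1 and kinases lower 1; without WT 5 and with no replicate block they were 3592, 1196, 3 and 1. Low depth limits Nr4a2 most among the members, with 97 to 118 reads in Rig1 KO libraries. A value under 1 TPM need not mean few reads, because the TPM were scaled by genomic span and a long gene comes out low.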

Other observations

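The nearest protein-coding genes on either side of each member were examined after the members' values were seen. Both neighbours of Nr4a1 on chromosome 15 were lower in Rig1 KO. Of all tested genes 12.2% were lower and 33.5% higher, and why these neighbours were lower was not tested. Tamalin, a scaffold protein, was at 9.26 ± 1.51 TPM in Rig1 KO and 28.5 ± 7.65 TPM in WT (log2 fold change -1.50, limma adjusted p = 4.82e-05), and Atg101, an autophagy initiation factor, was at 34.997 ± 3.53 TPM in Rig1 KO and 86.4 ± 12.4 TPM in WT (-1.27, adjusted p = 4.90e-06). The neighbours of the other members were higher, did not pass or were not tested. Gpd2, beside Nr4a2 on chromosome 2, was at 3.30 ± 0.470 TPM in Rig1 KO and 2.15 ± 0.417 TPM in WT (0.45, adjusted p = 0.0115), and Kcnj3 on its other side was too low to test. Beside Nr4a3 on chromosome 4, Stx17 was at 10.8 ± 0.668 TPM in Rig1 KO and 8.95 ± 0.680 TPM in WT (0.25, adjusted p = 0.0181), and Sec61b was at 38.3 ± 7.90 TPM in Rig1 KO and 41.3 ± 2.89 TPM in WT (adjusted p = 0.421).

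Within the genotypes the members did not vary together closely. Over deviations from the group means in 9 libraries, r was -0.25 between Nr4a1 and Nr4a2, 0.31 between Nr4a1 and Nr4a3 and 0.57 between Nr4a2 and Nr4a3. The genes most like Nr4a1 on this measure, among 8197 compared, were Zbtb7b (r = 0.990), Orai3 (0.980), Inppl1 (0.975), Fxr2 (0.973) and Dexi (0.973). Those most like Nr4a2 were Primpol (0.976), Lysmd1 (0.975), Smad5 (0.954), Atp6ap2 (0.950) and Togaram1 (0.947), and those most like Nr4a3 were Zfp961 (0.993), Plcb2 (0.989), Cpeb2 (0.983), Csnk2a2 (0.980) and Map4k2 (0.969). These are descriptions over 9 points, and each gene was picked for the highest r. The deviations of Nr4a1 come largely from WT 5, at 381 TPM, so the r values with Nr4a1 mainly follow that library. Zbtb7b is also on the list of CD4 T cell markers. WT 5 had the highest value of Zbtb7b (22.1 TPM) and the highest sum of that list (66.0 TPM).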
